A study of Rattus norvegicus with 8 samples.

Results

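Sinusoidal endothelial cell markers were followed in rat liver, a set of 10 listed genes (Stab1, Stab2, Lyve1, Kdr, Flt1, Pecam1, Fcgr2b, Eng, Tek and Vwf). Their probes were chosen as the non-control spots whose deposited gene name equals a listed symbol. Of the 10 genes, 9 had a probe and all 9 were tested, among 21691 genes tested in all. Stab1 matched no spot by this rule and was not analysed here. The 9 genes had 12 probes, 3 genes with 2 probes each and 6 with 1, and 10 of the 12 probes were well above background on all 8 arrays.

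The tested livers came from 4 male Wistar rats given butyrate-containing structured lipids (STL) by daily gavage at 1.65 g/kg body weight. The other 4 male Wistar rats, the controls, received maltodextrin at 3.0 g/kg body weight, a dose with the same energy. At 2 weeks of treatment both groups entered the resistant hepatocyte protocol, a chemical model of liver cancer in which initiated hepatocytes outgrow their neighbours, and livers were taken at 8 weeks. Every liver in both groups had therefore been through hepatocarcinogenesis, and the labels used here give no age. RNA of whole liver was measured on 1-colour Agilent arrays, 1 array per labelled rat. In whole liver, fewer endothelial cells and less of a transcript per endothelial cell cannot be told apart.

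Liver sinusoids are lined by a thin, fenestrated endothelium that lacks an organised basement membrane and clears waste macromolecules from portal blood. Stabilins, the hyaluronan receptor LYVE1 and the inhibitory Fc receptor FcγRIIb belong to its scavenging equipment, while the VEGF receptors, TIE2 and endoglin carry growth factor signals and PECAM1 and von Willebrand factor are shared with other vessels. In chronic liver injury this endothelium can lose its fenestrae and take on features of ordinary capillaries, a change known as capillarisation. Some of the markers are not exclusive to it: macrophages can also express LYVE1, stabilin-1 and Fc receptors.

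The probes whose behaviour matters most below are shown here, because 3 genes were read by 2 probes each and Kdr had the largest difference between the groups. All are 60-base oligonucleotides written 5′ to 3′ as the files give them, with no part marked by capitals.
Stab2 probe 1: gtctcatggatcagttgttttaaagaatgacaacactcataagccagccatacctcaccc
Stab2 probe 2: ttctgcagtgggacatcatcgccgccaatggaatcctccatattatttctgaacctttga
Kdr: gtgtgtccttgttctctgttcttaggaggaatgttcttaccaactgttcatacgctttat
Flt1 probe 1: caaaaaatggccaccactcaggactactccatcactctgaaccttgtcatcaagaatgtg
Flt1 probe 2: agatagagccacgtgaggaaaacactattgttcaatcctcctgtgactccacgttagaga
Vwf probe 1: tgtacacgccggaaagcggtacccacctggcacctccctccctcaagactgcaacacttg
Vwf probe 2: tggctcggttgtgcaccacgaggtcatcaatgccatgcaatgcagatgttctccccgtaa
In the rn4 build named by the file headers, the Stab2 probes lie at chr7:23470391-23470450 and chr7:23475318-23475377 on the minus strand, with starts 4927 bases apart. The Flt1 probes lie at chr12:7957094-7957153 and chr12:8035639-8035698 on the plus strand, 78545 bases apart. The Vwf probes lie at chr4:161759938-161759997 and chr4:161854554-161854613 on the plus strand, 94616 bases apart. The files list the probes of Kdr and Eng as unmapped. Exon and UTR positions of these probes were not determined here. Probe 1 is the brighter of each pair and stands for the gene in the fit.

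Array brightness, taken as the 75th percentile of processed signal, was 304 to 489 for STL and 467 to 605 for the controls. Control 1 and control 2 gave arrays that differed by 1.05 times the noise between repeated spots of a probe, against 2.13 to 7.66 times in the other 27 pairs. They were therefore averaged and counted as 1 sample, which left 4 STL samples against 3 control samples. All 15 of 15 hepatocyte markers tested, albumin and transferrin among them, were well above background on all 8 arrays, as were 8 of the 9 sinusoidal markers. All arrays shared 1 slide and 1 scan time, and each of the 4 slide columns held 1 STL and 1 control array. The labels count 4 rats per group, and with so few arrays every interval below is wide.

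No sinusoidal marker passed the test in either direction. None of the 9 passed limma at a Benjamini-Hochberg adjusted p under 0.05, which 0.00461% of the 21691 genes, 1 gene, did. At an unadjusted p under 0.05 by limma, 1 of the 9 (Kdr, higher) passed, against 19% of all genes. Of the 9 log2 differences, STL minus Control, 4 were above 0 and 5 below it (55.6%, against 41.9% of all genes below 0). Their median was -0.02, against 0.06 over all genes, and the median size of a difference regardless of sign was 0.17, against 0.23 over all genes. The 95% interval of the difference lay inside a 2-fold change either way for 7 of the 9 genes, Kdr and Flt1 being the exceptions. Vwf counted among these 7, and among the 4 above 0, by probe 1 only. Its probe 2 gave -0.45, with a 95% interval of -1.02 to 0.12. Adjusted p-values by limma ranged from 0.207 to 0.945.

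**Figure D1:**
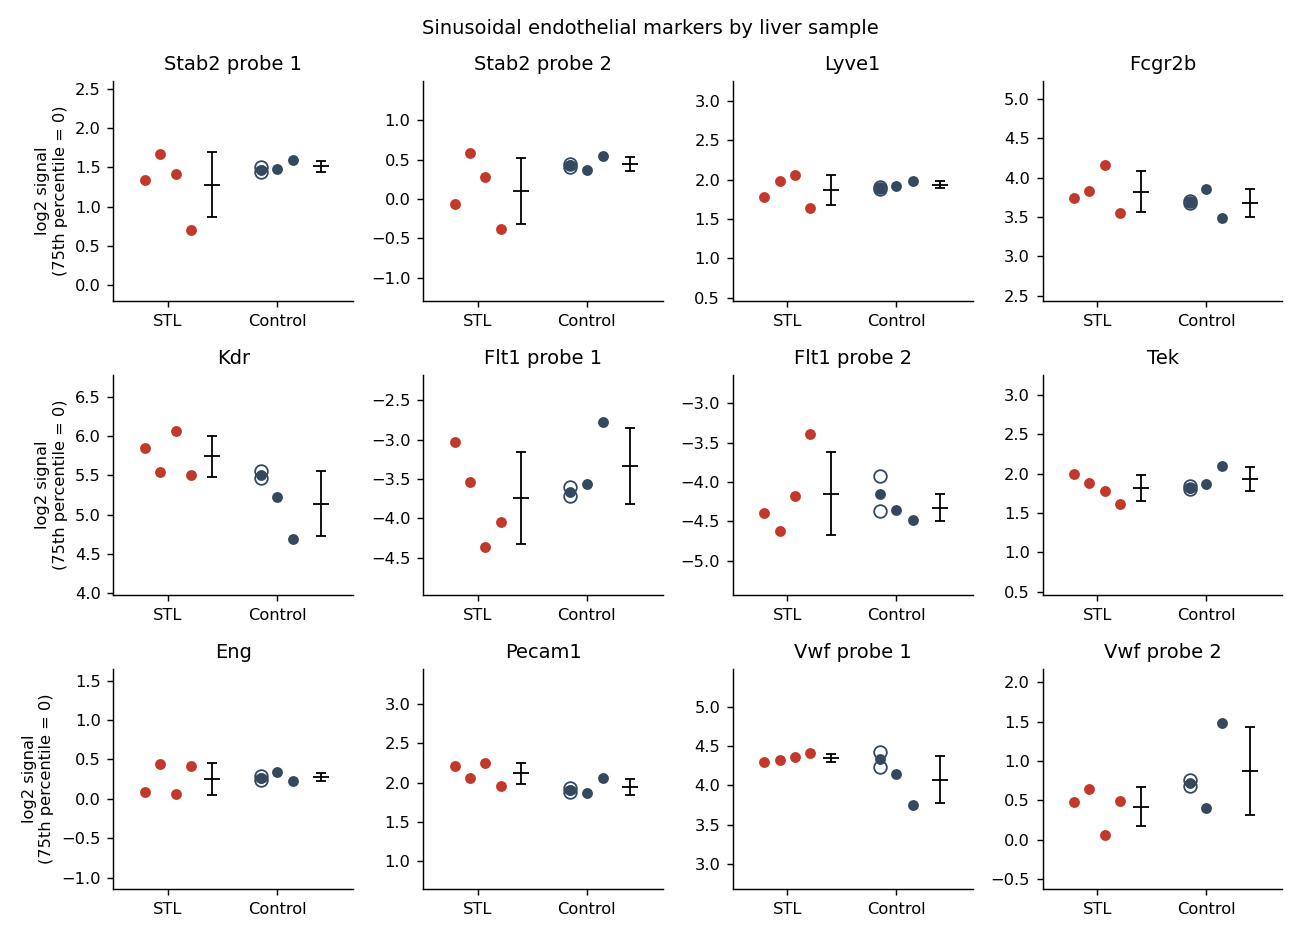
Normalised log2 signal (0 is the 75th percentile of an array) of the 12 marker probes in the 4 STL samples (red, STL 5 to 8 from left to right) and the 3 control samples (blue, control 1 and 2 averaged, control 3, control 4), with open circles for the arrays of control 1 and control 2 and bars for the mean ± SD. Each panel spans the same 2.8 log2 units. The groups overlap in every panel except Kdr, where the lowest STL sample, at 5.51, meets the highest control sample, at 5.51.

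Stab2 encodes stabilin-2, the scavenger receptor that takes up hyaluronan and other ligands in the sinusoid. Its probe 1 had a normalised log2 signal, on a scale where 0 is the 75th percentile of the array, of 1.34, 1.67, 1.42 and 0.70 in STL 5 to 8, against 1.44, 1.51, 1.48 and 1.59 on the arrays of control 1 to 4. The controls were close together, while 3 of 4 STL livers lay below every control sample, STL 8 furthest, and STL 6 lay above them. The log2 difference was -0.23 (SE 0.21, 95% interval -0.71 to 0.24, limma adjusted p = 0.550), from means of 1.28 ± 0.41 (SD, n = 4) in STL and 1.52 ± 0.07 (SD, n = 3) in controls. Probe 2 gave the same order of the STL livers, with STL 6 highest and STL 8 lowest. It read -0.07, 0.58, 0.27 and -0.39 in STL 5 to 8, against 0.41, 0.44, 0.37 and 0.54 in control 1 to 4. Its difference was -0.35 (95% interval -0.83 to 0.14, limma adjusted p = 0.401 in the fit over probes). The same 3 STL livers, STL 5, 7 and 8, were below all control samples by both probes. Without STL 8 the difference by probe 1 was -0.04, so that 1 liver carried most of it, and without STL 6 it was -0.36.

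Lyve1 encodes the hyaluronan receptor of lymphatic and sinusoidal endothelium. It read 1.78, 1.98, 2.06 and 1.64 in STL 5 to 8, against 1.88, 1.91, 1.92 and 1.98 in control 1 to 4. STL livers lay on both sides of the narrow control range, STL 8 again lowest. The log2 difference was -0.07 (limma adjusted p = 0.782), with a 95% interval of -0.35 to 0.22, or 0.783-fold to 1.16-fold. It was -0.14 without STL 7 and 0.0061 without STL 8.

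Fcgr2b encodes the inhibitory Fc receptor by which sinusoidal endothelium removes immune complexes. Its single probe was printed 10 times per array, and the SD of the log2 signal between those spots was at most 0.105 on any array. The mean log2 signal was 3.75, 3.84, 4.17 and 3.55 in STL 5 to 8, against 3.68, 3.71, 3.85 and 3.49 in control 1 to 4. The STL livers spread across and above the control range, with only STL 7 above every control sample. STL 7 was also the dimmest array, with a 75th percentile of 304. Before scaling, its Fcgr2b spots read 5044 to 5794, against 5714 to 8211 over the controls. The log2 difference of Fcgr2b, 0.15 (95% interval -0.22 to 0.51, limma adjusted p = 0.626), was smaller than the SD within the STL group, 0.26. Single livers moved it: it was 0.03 without STL 7 and 0.05 without control 4, and 0.24 without STL 8 and 0.23 without control 3.

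Kdr encodes VEGF receptor 2, the main signalling receptor for VEGF-A on endothelium, and had the lowest p of the set. It read 5.85, 5.54, 6.06 and 5.51 in STL 5 to 8, against 5.46, 5.55, 5.22 and 4.69 in control 1 to 4. With control 1 and 2 averaged, all 4 STL samples lay above the highest control sample, STL 8 only narrowly, while array by array STL 6 and STL 8 lay below control 2. Groups that did not overlap over the 7 samples were found for 16.9% of all genes, and over the 8 arrays for 12.8%. Kdr averaged 5.74 ± 0.27 (SD, n = 4) in STL and 5.14 ± 0.41 (SD, n = 3) in controls, which differ by 0.60 on the log2 scale (SE 0.21, 95% interval 0.11 to 1.09) or 1.52-fold. The unadjusted limma p was 0.0214 and the adjusted p 0.207, so the difference did not pass. Without control 4, the lowest control, it was 0.38. Within slide columns, STL minus Control was 0.39, -0.01, 0.84 and 0.82, and with the column as a block over 8 arrays it was 0.51 (limma adjusted p = 0.227).

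Flt1 encodes VEGF receptor 1, which binds VEGF-A tightly, signals weakly and also exists as a soluble form. Both of its probes were dim: probe 1 was detected above background in 3 of 4 STL and 4 of 4 control livers, and probe 2 in 2 of 4 STL and 3 of 4 control livers. Probe 1 read -3.03, -3.53, -4.37 and -4.04 in STL 5 to 8, against -3.71, -3.60, -3.56 and -2.78 in control 1 to 4. Probe 2 read -4.39, -4.62, -4.18 and -3.39 in the STL livers, against -3.93, -4.37, -4.35 and -4.48 in the controls. The liver that was highest by probe 2, STL 8, was among the lowest by probe 1. The differences pointed opposite ways, -0.41 by probe 1 (95% interval -1.24 to 0.42, limma adjusted p = 0.549) and 0.18 by probe 2 (95% interval -0.56 to 0.92, adjusted p = 0.786). By probe 1 the difference was -0.13 without control 4, -0.20 without STL 7 and -0.65 without STL 5. A direction for Flt1 was not detectable at this brightness.

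Tek encodes TIE2, the receptor of the angiopoietins. It read 1.99, 1.89, 1.78 and 1.61 in STL 5 to 8, against 1.80, 1.84, 1.87 and 2.10 in control 1 to 4. Control 4 was highest and STL 8 lowest, with the rest interleaved. The log2 difference was -0.11 (95% interval -0.40 to 0.18, limma adjusted p = 0.639). It was -0.03 without control 4, -0.04 without STL 8 and -0.17 without STL 5.

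Eng encodes endoglin, a co-receptor for BMP9 and BMP10 on endothelium. It read 0.09, 0.44, 0.07 and 0.42 in STL 5 to 8, against 0.28, 0.24, 0.34 and 0.23 in control 1 to 4. The STL livers fell in equal number on either side of the control range. The log2 difference of -0.02 was the smallest of the set (95% interval -0.33 to 0.29, limma adjusted p = 0.945), and leaving out 1 rat at a time put it between -0.08 (without STL 6) and 0.04 (without STL 7).

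Pecam1 encodes the junctional adhesion molecule PECAM1 (CD31), present on all endothelium, platelets and many leukocytes. It read 2.21, 2.06, 2.24 and 1.96 in STL 5 to 8, against 1.93, 1.89, 1.87 and 2.06 in control 1 to 4. STL 5 and STL 7 were above all controls and STL 6 and STL 8 were not. The log2 difference was 0.17 (95% interval -0.08 to 0.43, limma adjusted p = 0.410).

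Vwf encodes von Willebrand factor, the multimeric glycoprotein that carries factor VIII and tethers platelets, scarce in normal sinusoids and prominent in larger vessels and in capillarised sinusoids. Probe 1 read 4.30, 4.32, 4.36 and 4.41 in STL 5 to 8, against 4.42, 4.24, 4.14 and 3.74 in control 1 to 4. Probe 2 read 0.48, 0.65, 0.06 and 0.49 in the STL livers, against 0.76, 0.68, 0.40 and 1.49 in the controls. The STL livers were nearly level by probe 1 (SD 0.05), while control 4 was the lowest liver by probe 1 and the highest by probe 2. The log2 differences were 0.27 by probe 1 (95% interval -0.05 to 0.60, limma adjusted p = 0.321) and -0.45 by probe 2 (95% interval -1.02 to 0.12, adjusted p = 0.361), and neither passed. Without control 4 the difference by probe 1 was 0.11. The gap between the probes, probe 1 minus probe 2, was 3.81, 3.67, 4.30 and 3.91 in STL 5 to 8, against 3.61 in the averaged control, 3.74 in control 3 and 2.26 in control 4. Only control 4 stood well below the other samples. Its group difference was 0.72, with an exact two-sided permutation p of 0.0571 over the samples (0.0286 is the smallest that 35 arrangements can give), or 0.171 adjusted over the 3 genes with 2 probes. The corresponding exact permutation p was 0.400 for Flt1 and 0.286 for Stab2, both 0.400 after adjustment. With those 2 values, not even the smallest possible p could have put Vwf under 0.05 after adjustment. The adjusted value therefore cannot decide whether the gap between the Vwf probes differs between the groups. For Vwf the direction of the log2 difference depends on the probe that is read, and the mean of the probes gave -0.09.

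**Figure D2:**
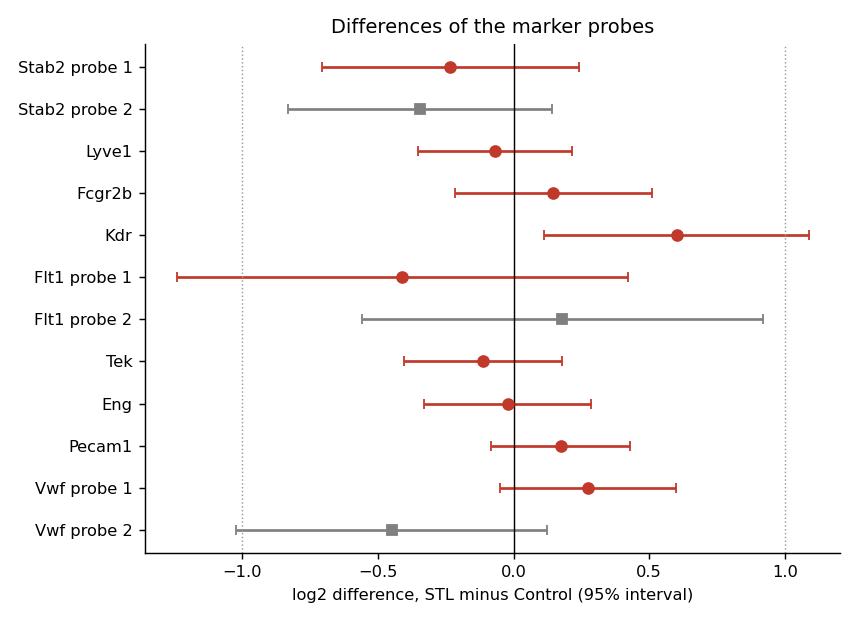
Log2 difference, STL minus Control, with its 95% interval for the probe that stands for each of the 9 marker genes (red circles, gene-level limma fit) and for the second probe of Stab2, Flt1 and Vwf (grey squares, probe-level fit). Dotted lines mark a 2-fold change; only the interval of Kdr excludes 0, before any adjustment, and the probes of Flt1 and of Vwf fall on opposite sides of 0.

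The livers differed in the mean of the markers by little. The centred mean over the 9 genes was 0.10, 0.09, 0.05 and -0.18 in STL 5 to 8, against -0.01 in the averaged control, -0.02 in control 3 and -0.03 in control 4. STL 8 was the lowest liver of this mean and of Stab2, Lyve1 and Tek. Standard deviations were larger among STL than among control samples for 7 of the 9 genes. The control SD rests on 3 samples, 1 of them an average of 2 arrays, and the share over all genes was not determined. The genes most like this mean over the 7 samples, taken as the highest Pearson r among 21667 genes, were Abhd4 (r = 0.96), an unnamed transcript (0.95), LOC102551791 (0.94), Btbd19 (0.93) and Mterf1 (0.93). These values describe the closest patterns out of many and carry no test.

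Other genes of sinusoidal endothelium, from a separate list, also stayed near 0 as a group. Of 19 tested, 14 were higher and 5 lower in STL (41.9% of all genes were lower). The median log2 difference was 0.08, and 0 passed the adjusted threshold by limma. At an unadjusted p under 0.05, 4 passed, 3 higher and 1 lower, against 11.6% of all genes higher and 7.41% lower. Flt4, VEGF receptor 3, read -0.02, -0.10, -0.06 and -0.08 in STL 5 to 8, against -0.45 in the averaged control, -0.42 in control 3 and -0.54 in control 4. All 4 STL livers were above every control, by a log2 difference of 0.40 (95% interval 0.16 to 0.64, limma adjusted p = 0.174), and its other probe gave 0.59. Hhex, a transcription factor of liver and endothelial development, differed by 0.98 (adjusted p = 0.178), and Lgmn, the lysosomal protease legumain that macrophages also make, by -0.66 (adjusted p = 0.172). Both separated the groups with no overlap, and none of the 3 passed over all genes. Clec1b, a C-type lectin receptor gene of sinusoidal endothelium and platelets, differed by 0.64 (adjusted p = 0.178), also with no overlap. Over the 7 samples, 5 of the 19 genes separated the groups, against 16.9% of all genes.

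No pan-endothelial gene passed over all genes. Of 18 tested, 15 were lower and 3 higher in STL (41.9% of all genes were lower), with a median of -0.38. At an unadjusted p under 0.05 by limma, 5 were lower and 1 higher, against 7.41% of all genes lower and 11.6% higher. Ramp2, a co-receptor for adrenomedullin, averaged -0.89 ± 0.29 (SD, n = 4) in STL and -0.07 ± 0.48 (SD, n = 3) in controls, which differ by -0.82 on the log2 scale (adjusted p = 0.178 by limma). Esam, an endothelial junction protein gene, differed by -0.42 (adjusted p = 0.207). In the other direction Robo4, an endothelial guidance receptor gene, differed by 0.34 (adjusted p = 0.202) and S1pr1, the sphingosine-1-phosphate receptor gene, by 0.53 (adjusted p = 0.296), or 0.30 without control 4. Cdh5, VE-cadherin, was at 0.15. Without control 4, 14 of 18 were lower, with a median of -0.22 and 3 at an unadjusted p under 0.05.

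Genes of ordinary capillaries and of basement membrane were all below 0. Of 15 tested, 15 were lower in STL (14 with normexp background correction), against 41.9% of all genes. The median log2 difference was -0.69. Over the 7 samples, 3 of the 15 genes separated the groups, against 16.9% of all genes. The centred mean of the list was 0.15 in STL 6, above the -0.04 of the averaged control. None passed the adjusted threshold by limma, while 10 had an unadjusted p under 0.05, against 7.41% of all genes lower at that level. Mcam, the adhesion molecule CD146, read -1.31, -0.54, -1.53 and -1.58 in STL 5 to 8, against -0.43 in the averaged control, -0.50 in control 3 and 0.56 in control 4. No STL liver reached a control, and the log2 difference was -1.12 (95% interval -1.86 to -0.38, limma adjusted p = 0.178). Plvap, whose product forms the diaphragms of fenestrae and caveolae, read 1.75, 2.13, 1.93 and 1.53 in STL 5 to 8, against 1.93 in the averaged control, 2.72 in control 3 and 2.83 in control 4. STL 6 lay above the averaged control, and the difference was -0.66 (adjusted p = 0.205). Ednrb, the endothelin B receptor gene, differed by -0.69 (adjusted p = 0.207). Vcam1, a leukocyte adhesion molecule gene, was at -0.29, or -0.09 without control 4. Esm1, the endothelial proteoglycan gene endocan, was at -1.61 (adjusted p = 0.327) with its probe above background in 2 of 4 STL livers, and at -0.25 with normexp background correction. Of the rats left out 1 at a time, control 4 moved the median most, to -0.44. Without it 14 of 15 were lower and 1 had an unadjusted p under 0.05. That last count was also 4 without control 3, 5 without STL 5 or STL 7, and 11 without STL 6. Without STL 8, 15 of 15 were lower and 2 had an unadjusted p under 0.05. The count at that level was 3 with the slide column as a block over 8 arrays. It was 7 with each of the 8 arrays a sample, and 1 to 12 over all alternatives tried.

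**Figure D3:**
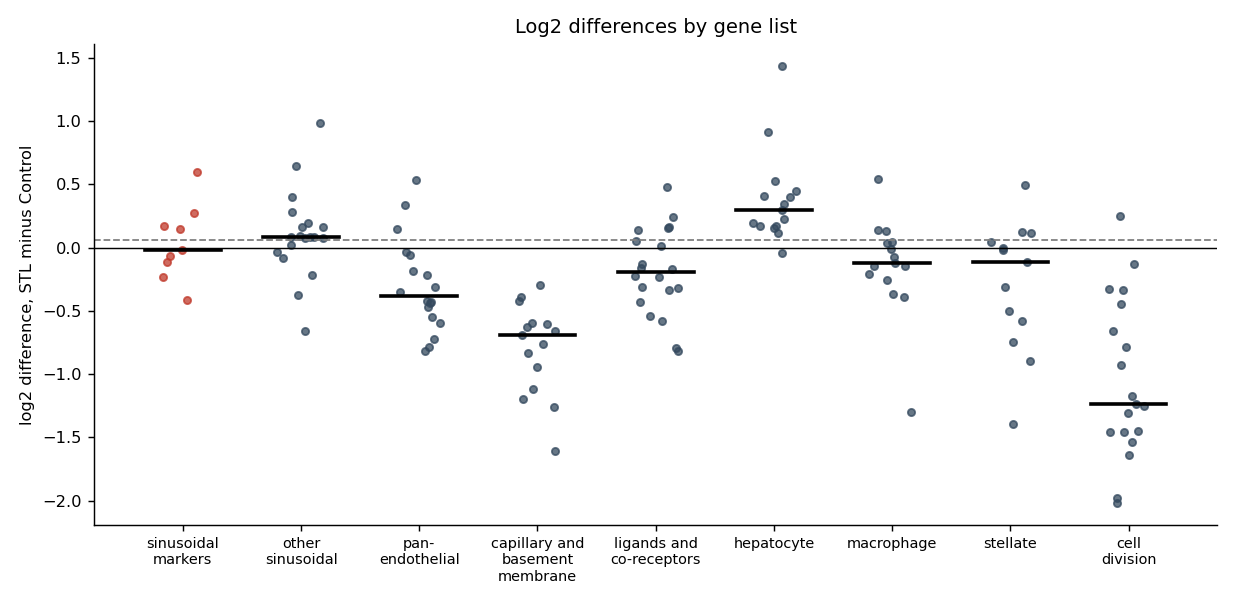
Log2 difference, STL minus Control, of each tested gene (points) in 9 gene lists, with the median of each list (black bar) and of all 21691 genes (dashed line, 0.06). The sinusoidal markers (red) and the other sinusoidal genes lie around 0, with medians of -0.02 and 0.08, while all 15 capillary and basement membrane genes lie below it. The list labelled ligands and co-receptors also holds the intracellular regulator genes Hif1a, Epas1, Id1, Id3, Smad6 and Smad7.

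Ligands and co-receptors of the marker receptors lay on both sides of 0. Their list also held intracellular regulator genes that are neither: Hif1a, Epas1, Id1, Id3, Smad6 and Smad7. Of 20 tested, 13 were lower and 7 higher in STL (41.9% of all genes were lower), with a median of -0.19. With normexp background correction 10 were lower and 10 higher, with a median of 0.02. In the main fit 0 passed the adjusted threshold, and 3 had an unadjusted p under 0.05 by limma, against 19% of all genes. Vegfa, the ligand of both VEGF receptors, read 4.09, 3.96, 4.09 and 4.31 in STL 5 to 8, against 3.74 in the averaged control, 3.48 in control 3 and 3.68 in control 4. Every STL liver was above every control, by a log2 difference of 0.48 (95% interval 0.20 to 0.75, limma adjusted p = 0.172), and its other probes gave 0.16 and 0.13. Over the 7 samples, 3 of the 20 genes separated the groups, against 16.9% of all genes. Hif1a, the hypoxia-inducible transcription factor gene, differed by 0.24 (adjusted p = 0.249) by one probe and by -0.01 by the other. Angpt1, an activating ligand of TIE2, differed by -0.82 (adjusted p = 0.208) by one probe and by -1.19 by the other, and by -0.46 without control 4. Von Willebrand factor partners gave 3 higher and 3 lower of 6 tested, with a median of 0.00. The platelet glycoprotein gene Gp1bb was at 0.28 (0.10 to 0.46 over the alternatives tried) and the integrin gene Itgb3 at -0.24 (-0.40 to 0.04).

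Markers of other cell types are given beside these values, and their part in them was not tested. Hepatocyte markers were higher in 14 of 15 genes with a median of 0.30, but in 6 of 15 with a median of -0.06 after quantile normalization, and their summed linear signal, relative to the 75th percentile of each array, was 5575 to 7968 in STL and 3920 to 5891 in controls. Macrophage markers were lower in 10 of 15 with a median of -0.12 and sums of 151 to 195 in STL and 191 to 202 in controls. Stellate cell markers were lower in 9 of 13 with a median of -0.11 and sums of 68.5 to 86.4 in STL and 87.2 to 122 in controls. Cholangiocyte markers were lower in 8 of 9 with a median of -1.07. Cell division genes were lower in 18 of 19 with a median of -1.24 and preneoplastic markers in 12 of 12 with a median of -1.50. Of all genes, 41.9% were lower. In STL 6 the centred mean of the preneoplastic markers was 0.63. It was 0.35 in the averaged control, 0.65 in control 3 and 1.72 in control 4. For cholangiocyte markers it was 0.29 in STL 6, against 0.13, 0.19 and 1.41 in these controls. In both lists STL 5, STL 7 and STL 8 lay below every control sample. Lymphocyte markers were higher in 7 of 10 with a median of 0.23 and red cell and platelet markers in 5 of 7 with a median of 0.43. Without control 4, hepatocyte markers were higher in 9 of 15 with a median of 0.18, and the medians were -0.59 for cholangiocyte, -0.85 for cell division, -0.95 for preneoplastic, 0.06 for lymphocyte, 0.10 for red cell and platelet and -0.07 for macrophage markers. For stellate cell markers the median without control 4 was -0.16. Over the alternatives tried, the median was -0.25 to -0.05 for macrophage and -0.32 to -0.02 for stellate cell markers. None of these genes passed over all genes by limma. With control 1 and 2 both left out, 10 of 19 cell division genes and 1 of 15 hepatocyte genes passed, and without STL 6, 2 of 12 preneoplastic genes and 1 of 19 cell division genes passed. The centred mean of the cell division genes was -0.69 to -0.24 in the STL samples, against -0.33 in the averaged control, 1.08 in control 3 and 1.05 in control 4, so that the averaged control lay among the STL samples. The centred mean of control 4 was the highest of all 7 samples for the capillary list, at 1.00, and the lowest for hepatocyte markers, at -0.60, whereas for the sinusoidal markers it was -0.03.

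**Figure D4:**
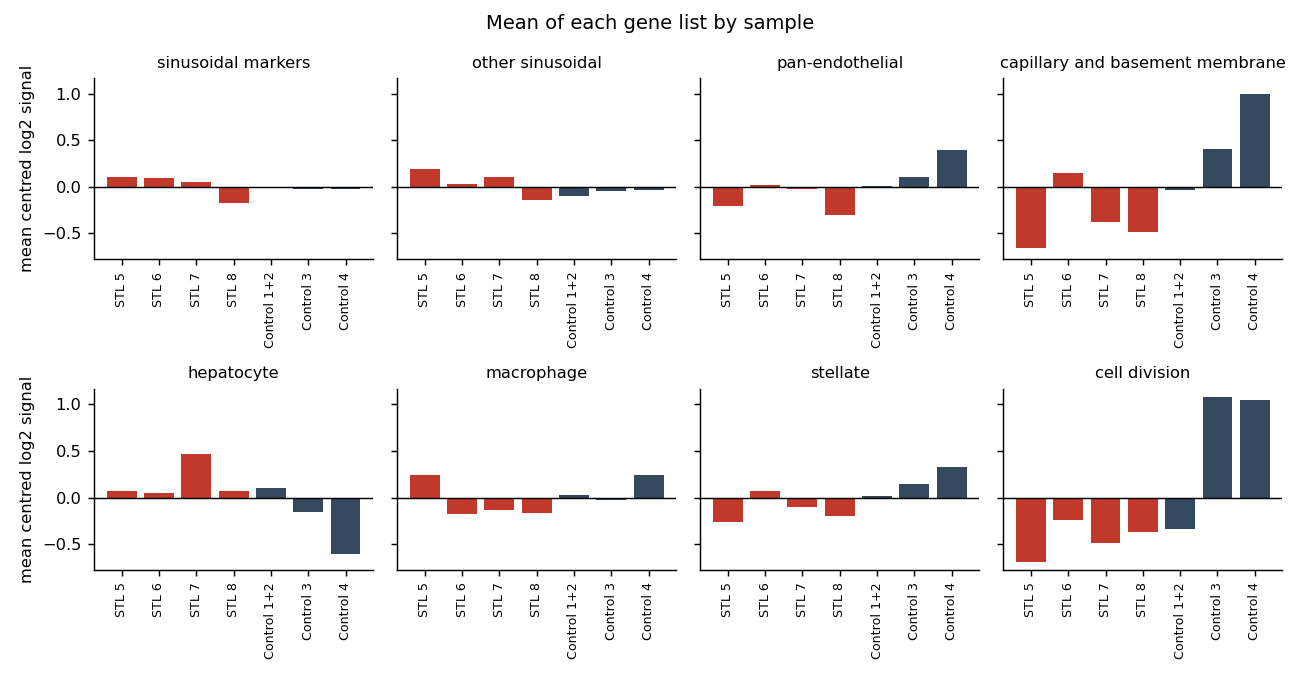
Mean over each gene list of the log2 signals centred on the 7 samples, for the 4 STL samples (red) and the 3 control samples (blue), on a common vertical axis. The sinusoidal markers stay between -0.18 and 0.10 in all 7 samples, while the capillary list spans -0.65 to 1.00 and control 4 is its highest sample.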

How the data were processed

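Per the file headers, the deposited intensity values of single spots came from Agilent Feature Extraction, version 11.5.1.1 (10.7 per the submitters' processing notes). Their headers name rn4, 1 slide and 1 scan time. The authors' series table holds the same intensity on a linear scale, not centred per gene, with column medians of 42.1 to 48.9. Matched by value, 6 of its 8 columns held the spot values labelled as a different rat, always within the group (0 crossed groups). Which labelling is right was not determined, and the rat numbers used here follow the spot values.

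From 58717 non-control spots, outlier-flagged ones were left out, spots of 1 probe averaged, and log2 taken relative to each array's 75th percentile. The brightest probe stood for a gene, and a gene was tested if 4 or more of 8 arrays were above background for it. Genes other than the members were named through RefSeq tables of GRCr8, without coordinates. The comparison used limma (version 3.58.1, R version 4.3.3; lmFit, eBayes with intensity trend, two-sided, Benjamini-Hochberg, threshold 0.05), after a test on simulated data. Other probes have values from a fit over probes. The arrays of control 1 and control 2 were averaged under a ratio limit of 1.5. Named genes are all members and, per other list, the 3 lowest p-values, the extremes and, by correlation, the 5 nearest genes. Those outside that rule (Clec1b and Cdh5) were chosen after their values were seen. Members and lists were chosen with earlier results of these data known. The 21 alternatives covered samples, scaling, background, filter, probe rule, block, weights and leaving out each rat. Tables and plots used Python 3.11.15 and pandas 2.3.3.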

Additional observations from a re-analysis of the deposited data

Results flagged for a closer look

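Among 26 sets of 4 STL values examined (12 member probes and 14 list means), 2 had 1 sample far from the other 3, where chance flags about 1 in 20. In the hepatocyte marker mean STL 7 stood at 0.46, against 0.05 to 0.07 in the other STL livers, a gap of 0.949 of the range. STL 7 was also the dimmest array, with a 75th percentile of 304, and a link to this value was not tested. In the macrophage marker mean STL 5 stood at 0.24, against -0.18 to -0.13, a gap of 0.877 of the range. No member probe had such a sample among the STL livers, and the 3 control samples are too few for this comparison.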

How the results depend on the processing

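No member passed the adjusted threshold by limma in any of the 21 alternatives, where the lowest adjusted p of a member was 0.113 (Kdr, control 1 and 2 both left out). Of 188 member values, 179 kept their direction. The direction turned for Eng to 0.0097 with array weights and 0.014 with the series table, and leaving out 1 rat gave -0.084 to 0.042 (above 0 without control 3, STL 5 or STL 7). It turned for Fcgr2b to -0.021 with array weights, for Flt1 to 0.077 with normexp, for Lyve1 to 0.0061 without STL 8 (-0.135 to 0.0061 over rats left out) and for Vwf to -0.088 with the mean of its probes. Kdr stayed between 0.38 and 0.78 and had an unadjusted p under 0.05 by limma in 18 of 21. The exceptions all left out 1 rat: control 4, STL 5 or STL 7. The median over members lay between -0.08 and 0.08, and 4 to 6 members were lower. Over all genes, the count past the threshold was 1, and it was 21 with each of the 8 arrays a sample, 214 with control 1 and 2 both left out, 38 with array weights and 78 with the series table. Leaving out 1 rat gave 1 to 46 (46 without STL 6, 3 without control 3). The counts of lower genes in the 4 related lists, tried after seeing the data, moved by more than 1.5 times only for other sinusoidal genes, to 8 of 19 with quantile normalization and with array weights, against 5. Leaving out 1 rat gave 4 to 7 there. The causes were not tested. The labels' replicate numbers are not shared between groups, and with the slide column as a block over 8 arrays 1 gene passed and the members' median was -0.017. Flt1 is limited by signal near background.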
